A study of Mus musculus with 15 samples.

Results

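The exocytosis genes described here are the rows of the expression table whose symbols belong to 12 families that act in vesicle docking, priming and fusion. They are the synaptotagmins (Syt), synaptotagmin-like proteins (Sytl), syntaxins (Stx), syntaxin-binding proteins (Stxbp), vesicle-associated membrane proteins (Vamp), 4 SNAP proteins (Snap23, Snap25, Snap29 and Snap47), complexins (Cplx), Rab3 and Rab27 GTPases, Unc13 and Rims proteins, and the SV2 vesicle glycoproteins. Matching by symbol gave 77 genes of the 38283 in the table, the largest families being Syt with 17 and Stx with 15 genes. Their RNA levels were compared between alpha, beta and delta cells of the mouse pancreatic islet, which secrete glucagon, insulin and somatostatin.

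RNA was sequenced from 15 samples of sorted C57BL/6 islet cells, comprising alpha cells (n = 5), beta cells (n = 4) and delta cells (n = 6). Alpha and beta cells carried the Glu-Venus genotype, in which the proglucagon promoter drives the fluorophore Venus, and beta cells were the Venus-negative cells with high scatter and autofluorescence. Delta cells carried Sst-CreXROSA26EYFP/EYFP, so that EYFP appears in cells that have expressed Cre from the Sst promoter. The labels give no age and no treatment other than the sort. Islets of several mice were pooled for each sample, so the p-values measure the spread between pools, and since delta cells came from another mouse line, effects of line and of cell type cannot be told apart.

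Hormone granules fuse with the plasma membrane when a vesicle SNARE protein, a Vamp, zips into a complex with a syntaxin and a SNAP protein. Munc18 proteins of the Stxbp family hold the syntaxin, Unc13 and Rims proteins prime the granule, Rab3 and Rab27 with their Sytl effectors tether it, and synaptotagmins and complexins tie fusion to calcium. Islet cells use the same core proteins as neurons, and several family members can fill each role.

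Promoter sequences are shown for the genes with the clearest cell type differences described below, which are Sv2b for alpha cells, Sytl4 and Rims3 for beta cells and Rab3b for delta cells. They are RefSeq sequences of build GRCm38.p6, 250 bases before the start site, read 5′ to 3′ on the strand of the gene, and capitals mark matches to 2 of the 4 motifs searched. Sv2b lies on the minus strand of chromosome 7 (chr7:75309263-75309512, the first of 4 starts in the table). Sytl4 lies on the minus strand of the X chromosome (chrX:133981813-133982062). Rims3 and Rab3b lie on the plus strand of chromosome 4 (chr4:120854549-120854798 and chr4:108878820-108879069).
Sv2b: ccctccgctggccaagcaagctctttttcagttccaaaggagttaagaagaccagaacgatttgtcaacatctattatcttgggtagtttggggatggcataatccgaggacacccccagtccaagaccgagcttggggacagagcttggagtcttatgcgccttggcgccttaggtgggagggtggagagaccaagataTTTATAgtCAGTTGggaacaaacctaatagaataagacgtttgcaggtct
Sytl4: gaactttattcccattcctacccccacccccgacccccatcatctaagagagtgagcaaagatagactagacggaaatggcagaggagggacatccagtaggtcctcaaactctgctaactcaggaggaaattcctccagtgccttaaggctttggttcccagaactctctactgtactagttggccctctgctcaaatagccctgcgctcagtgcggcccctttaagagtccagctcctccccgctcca
Rims3: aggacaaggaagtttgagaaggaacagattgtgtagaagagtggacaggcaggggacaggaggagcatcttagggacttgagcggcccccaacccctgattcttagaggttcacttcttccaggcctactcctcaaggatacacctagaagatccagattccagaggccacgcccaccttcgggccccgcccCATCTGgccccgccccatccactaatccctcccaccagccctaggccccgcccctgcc
Rab3b: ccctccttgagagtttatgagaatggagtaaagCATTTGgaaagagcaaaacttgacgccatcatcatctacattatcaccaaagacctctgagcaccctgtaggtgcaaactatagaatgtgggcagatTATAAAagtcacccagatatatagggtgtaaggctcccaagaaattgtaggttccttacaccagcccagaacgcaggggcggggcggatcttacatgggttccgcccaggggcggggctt
The motifs were a TATA box (TATAAA), a cAMP response element (TGACGTCA), an E-box (CANNTG) and the letters TGCTGA of a Maf recognition element, each searched on both strands. Of 32851 promoters of the same length, 12.4% held the TATA box, 1.55% the cAMP response element, 66.2% an E-box and 16.1% TGCTGA. The Sv2b window held a TATA box match on the opposite strand, 50 bases before the start (TTTATA, position -50), and an E-box at position -42. The Rab3b window held a TATA box match at position -120 and an E-box at position -217, and the Rims3 window an E-box at position -58. None of the 4 motifs was found in the Sytl4 window. The matches did not overlap and describe letters only.

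Levels are given as FPKM, read fragments corrected for gene length and library size, which allows comparison between genes. From the spacing of low values, depth could be estimated for 6 samples only. It was 7.6 to 10.8 M reads for alpha 2, delta 1 and delta 2 and 25.3 to 30.2 M for alpha 5, delta 3 and delta 4. In 6 samples (alpha 1 to 3, beta 2, delta 1 and 2) the FPKM of 83 ribosomal protein genes summed to 66197 to 141460, and in the other 9 to 7958 to 39057, a split called the higher and lower ribosomal protein sets below. The FPKM of all genes summed to 12474382 to 26257992 in the higher and to 2815725 to 4671212 in the lower set. The hormone markers matched the labels. The 5 alpha cell markers summed to 195000 to 364000 FPKM in alpha cells and to at most 3010 in beta and 894 in delta cells. The 7 beta cell markers summed to 140000 to 789000 in beta cells and to at most 13500 and 14800 in alpha and delta cells. The 4 delta cell markers summed to 103000 to 268000 in delta cells and to at most 3350 and 474 in alpha and beta cells. Ppy, the hormone of PP cells, lay at 17700 to 41400 FPKM in alpha, 16.9 to 98.1 in beta and 10900 to 48600 in delta cells. Summed acinar markers, of which 5, 1 and 6 of 7 had a mean above 1 FPKM, reached 61.7 in alpha, 10.1 in beta and 469 in delta cells. Of the ductal, endothelial, immune, fibroblast and Schwann cell markers, 2 differed. Sox9, of the ductal list, was higher in delta cells (1.29 ± 0.746 FPKM) than in alpha (1.12, adjusted p = 0.0182) and beta cells (1.11, 0.0174), while Krt19 was listed at 0 in all delta samples and the 4 ductal markers summed to 6.76 to 15.2, 2.81 to 15.7 and 8.21 to 20.3 FPKM in alpha, beta and delta cells. Col1a2, of the fibroblast list, was higher in alpha cells (2.16 ± 1.47 FPKM) than in beta (-1.53, 0.00677) and delta cells (-1.52, 0.00263), while Col1a1 was listed at 0 in all samples and the 5 fibroblast markers summed to 1.77 to 4.95, 0.0972 to 0.908 and 0.289 to 0.988 FPKM. The part of PP, acinar, ductal and fibroblast RNA in the differences below was not tested, and in sorted populations fewer cells of a type and less RNA per cell cannot be told apart.

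Of the 77 genes, 60 had a mean above 1 FPKM in at least 1 cell type and were tested; 46 of these passed in all 3 cell types, 6 in 2 and 8 in 1. Differences were tested with limma on log2(FPKM + 1), adjusted over all 14405 genes tested, and an adjusted p under 0.05 was counted as a difference. Across the 3 cell types 16 of the 60 genes differed (F-test), and 16.0% of all genes tested did. Between beta and alpha cells 8 differed, where 7.66% of all genes differed. Of these, 2 were higher in beta cells (2.84% of all genes) and 6 lower (4.82%), and the samples of the cell types did not overlap for 10 members (8.12% of all genes). Delta and alpha cells differed in 10, against 6.81% of all genes, with 6 higher in delta cells (5.33% of all genes) and 4 lower (1.48%), and did not overlap for 9 (6.64%). Delta and beta cells differed in 13, against 14.7% of all genes, with 9 higher in delta cells (11.7% of all genes) and 4 lower (2.99%), and did not overlap for 14 (14.9%). This last split was 14 higher and 3 lower without beta sample 2, 8 and 2 without beta sample 4, and 17 and 2 within the lower ribosomal protein set. In beta against alpha cells the split was 2 higher and 9 lower without beta sample 2, and 2 and 11 within the lower set. The median difference of the tested members was -0.05, 0.14 and 0.08 on the log2 scale in these comparisons and that of all genes -0.13, 0.13 and 0.30. With median-ratio size factors, which moved the median of all genes by 0.13, -0.12 and -0.28, the splits were 4 higher and 7 lower, 6 and 5, and 8 and 6. After quantile normalisation, which moved it by 0.11, -0.17 and -0.30, they were 3 and 9, 4 and 5, and 9 and 6. Shares of all genes were counted only for the fit of all 15 samples without added scaling, so these splits cannot be set against them. A total of 17 genes differed in at least 1 test. Of these, 6 (Rab27b, Rims3, Sv2b, Syt17, Syt6 and Sytl2) had a mean above 1 FPKM in only 1 cell type and so could enter the test only through the group in which they were high. The 3 comparisons share samples and are not independent.

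**Figure D1:**
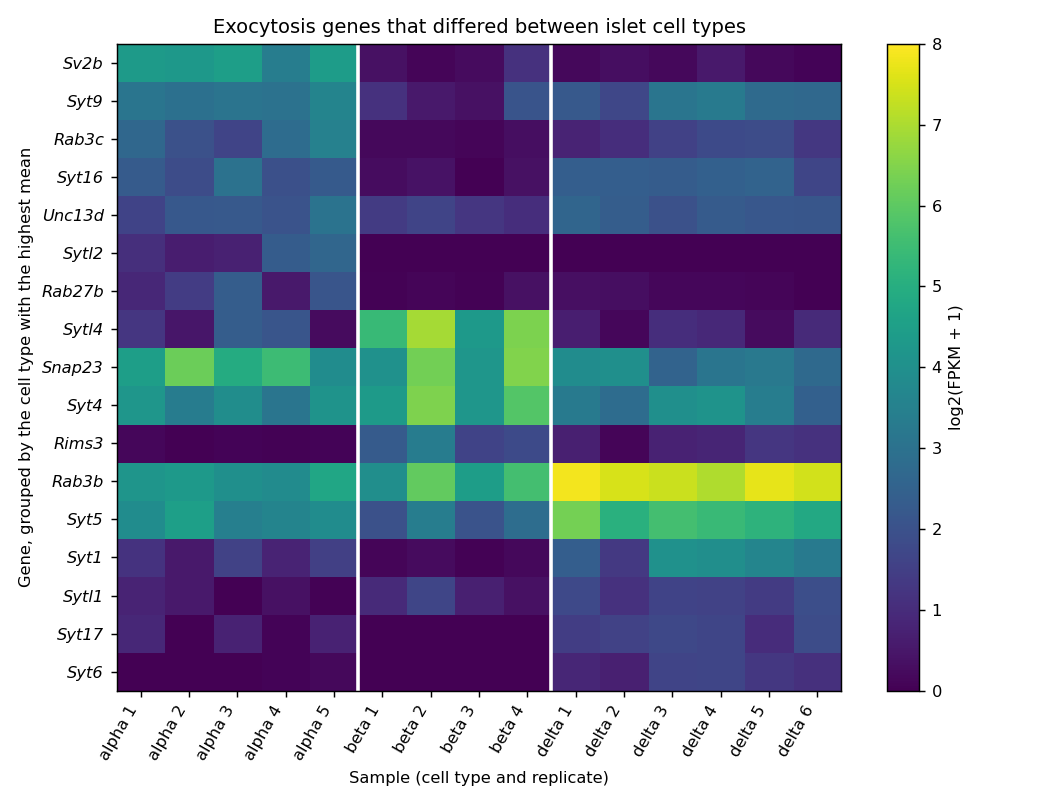
Each row is 1 of the 17 exocytosis genes that differed in at least 1 test, each column a sample, and the colour gives log2(FPKM + 1) from 0 to 8. White lines separate alpha, beta and delta samples; the Sv2b row is bright only in the 5 alpha samples, the Sytl4 row in the 4 beta samples, and the Rab3b row is brightest in the 6 delta samples.

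Sv2b, Rab3c, Rab27b and Sytl2 were higher in alpha cells than in both other cell types, a pattern found in 0.930% of all genes tested. Sv2b encodes 1 of the 3 SV2 glycoproteins of secretory vesicles. It lay at 19.4, 18.4, 21.6, 9.52 and 20.2 FPKM in the 5 alpha samples, at 0.272, 0.0774, 0.172 and 1.22 in the 4 beta samples, and between 0.0477 and 0.457 (median 0.128) in the delta samples. The lowest alpha sample, alpha 4, stood well above every beta and delta sample. The difference was -3.73 ± 0.30 (SE, log2 scale) in beta against alpha cells (adjusted p = 9.44e-07) and -3.95 ± 0.27 in delta against alpha cells (adjusted p = 1.19e-07), and within the higher, with 1 beta sample, and lower ribosomal protein sets it was -4.27 and -3.33 in beta and -4.14 and -3.67 in delta cells. Beta and delta cells differed by -0.22 (95% CI -0.83 to 0.39, adjusted p = 0.666). Exons of Sv2b share 47 bases with 1500012K07Rik on the opposite strand.

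Rab3c, a Rab3 GTPase, lay at 5.36, 2.95, 2.09, 6.17 and 10.4 FPKM in alpha cells, at 0.131, 0.115, 0.0679 and 0.225 in beta cells and between 0.742 and 2.65 (median 1.68) in delta cells. Beta cells stood apart from both other groups, while alpha and delta cells overlapped. The difference was -2.35 ± 0.36 in beta against alpha cells (adjusted p = 0.000643), 1.21 ± 0.35 in delta against beta cells (0.0282) and -1.13 ± 0.33 in delta against alpha cells (0.0487). The last of these missed the threshold without any 1 of alpha samples 1, 4 and 5, the 4 beta samples or the 6 delta samples (adjusted p 0.0524 to 0.111), and the difference between delta and beta cells missed it without beta sample 1, 3 or 4 or delta sample 3, 4 or 5 (0.057 to 0.0664), after quantile normalisation (0.0968) and with a filter of 5 FPKM (0.0839). The difference between delta and alpha cells was also above the threshold with a pseudocount of 0.1 (0.0773), without a filter (0.075), with a filter of 5 FPKM (0.166), with no variance trend (0.056) and when only these cell types were fitted (0.0875).

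Sytl2, a Rab27 effector that tethers granules, lay at 1.13, 0.562, 0.679, 4.06 and 5.19 FPKM in alpha cells. It was listed at 0 in the 4 beta samples and in 4 of the 6 delta samples, with 0.00306 and 0.0138 in the others. The alpha samples with the highest values were the 2 of the lower ribosomal protein set. On the log2(FPKM + 1) scale both differences from alpha cells were -1.49 (adjusted p = 0.0271 for beta and 0.0132 for delta cells), and that for beta cells missed the threshold without alpha sample 4 (0.0528) or 5 (0.0511) or beta sample 1 (0.0638) or 4 (0.0671), and when only these cell types were fitted (0.116).

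Rab27b, the second Rab27 GTPase, lay at 0.856, 1.66, 4.12, 0.45 and 3.35 FPKM in alpha cells, at 0.0433, 0.0709, 0.0275 and 0.284 in beta cells and between 0.0219 and 0.263 (median 0.0955) in delta cells. No beta or delta sample reached the lowest alpha sample. The difference was -1.32 ± 0.35 in beta cells (adjusted p = 0.0304) and -1.29 ± 0.32 in delta cells (0.0174). The former missed the threshold without alpha sample 2, 3 or 5 or beta sample 1, 3 or 4 (0.0551 to 0.0761) and when only these cell types were fitted (0.106), and the latter without alpha sample 3 (0.0521). Rab27b and Sytl2 lay at levels like that of Col1a2, which was also highest in alpha cells.

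**Figure D2:**
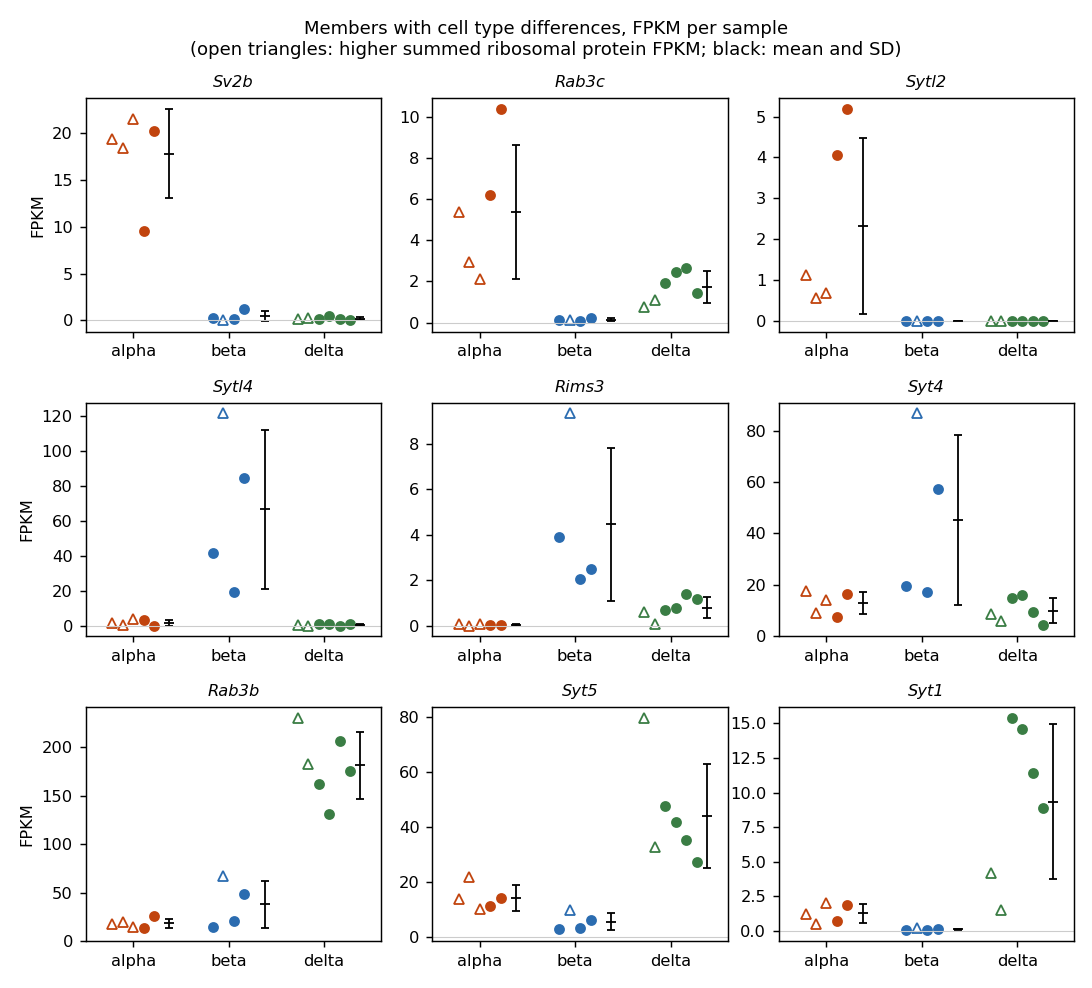
FPKM on linear axes in each of the 15 samples for 9 of the genes that differed, with open triangles for the 6 samples of the higher ribosomal protein set, filled circles for the other 9, and a black bar for the mean and SD. Sv2b, Rab3c and Sytl2 are highest in alpha cells, Sytl4, Rims3 and Syt4 have their highest means in beta cells, and Rab3b, Syt5 and Syt1 have theirs in delta cells.

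In beta cells, Sytl4 and Rims3 were higher than in both other cell types, as were 1.58% of all genes tested. Sytl4 encodes granuphilin, a Rab27 and Rab3 effector known for docking insulin granules. It lay at 41.4, 121, 19.2 and 84.2 FPKM in the 4 beta samples, at 1.40, 0.393, 4.08, 3.36 and 0.178 in alpha cells and between 0.101 and 1.08 (median 0.76) in delta cells. The beta samples varied widely among themselves, but the lowest of them exceeded every alpha and delta sample. The ratio of the means was 35.3 for beta over alpha cells. On the log2 scale the difference was 4.48 ± 0.53 (adjusted p = 4.24e-05) in beta against alpha and -5.10 ± 0.51 (5.49e-06) in delta against beta cells, and alpha and delta cells differed by -0.62 (95% CI -1.64 to 0.39, adjusted p = 0.593).

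Rims3, a short member of the Rims family without the Rab3-binding part, lay at 3.92, 9.34, 2.06 and 2.50 FPKM in beta cells. It lay at 0.0979, 0, 0.0599, 0.0248 and 0.0459 in alpha cells and between 0.0878 and 1.39 (median 0.75) in delta cells. All beta samples were above all others. The difference was 2.21 ± 0.35 in beta against alpha cells (adjusted p = 0.00075) and -1.47 ± 0.34 in delta against beta cells (0.00755). The latter was -2.96 within the higher ribosomal protein set, with 1 beta sample, and -0.91 within the lower. Delta against alpha cells gave 0.74 (0.228), which passed the threshold with a pseudocount of 0.1 (0.0167) and when only these 2 cell types were fitted (0.0278).

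Syt4, a synaptotagmin that responds little to calcium, was lower in delta than in beta cells by the test (-1.87 ± 0.48, adjusted p = 0.0152). The 4 beta samples held 19.6, 86.7, 17.2 and 57.3 FPKM, the alpha samples 17.6, 9.22, 14.2, 7.6 and 16.4, and the delta samples 4.43 to 16.3 (median 9.23). The highest delta sample lay just below the lowest beta sample, and alpha and beta cells overlapped (1.47, adjusted p = 0.0867). Without beta sample 4 the difference between delta and beta cells had an adjusted p of 0.0613. The difference between beta and alpha cells passed the threshold without beta sample 3 (0.0417), with size factors (0.00326) and after quantile normalisation (0.00739). Exons of Syt4 share 566 bases with Gm26658 on the opposite strand.

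Syt16 and Syt9 were lower in beta cells than in both alpha and delta cells, as was Rab3c, a pattern found in 2.94% of all genes tested. Syt16, a synaptotagmin thought not to bind calcium, lay at 3.87, 2.62, 7.05, 2.87 and 3.80 FPKM in alpha cells, at 0.199, 0.302, 0 and 0.281 in beta cells and between 2.2 and 4.89 (median 4.21) in delta cells. Alpha and delta cells overlapped throughout, and the beta samples lay far below both. The difference was -2.02 ± 0.29 in beta against alpha cells (adjusted p = 0.000297) and 2.04 ± 0.28 in delta against beta cells (0.000123), with 0.02 (95% CI -0.53 to 0.58) between delta and alpha cells. Syt9, a calcium sensor of granule fusion, lay at 7.64, 6.81, 7.44, 7.08 and 11.3 FPKM in alpha cells, at 1.20, 0.45, 0.289 and 3.24 in beta cells and between 2.25 and 8.54 (median 5.67) in delta cells. Beta sample 4 reached into the range of the delta samples but not of the alpha samples. The difference was -2.13 ± 0.39 in beta against alpha cells (adjusted p = 0.0028) and 1.59 ± 0.38 in delta against beta cells (0.00916). Ppy was also lowest in beta cells, in the ranges given above, and exons of Syt16 share 183 bases with Gm29587 on the opposite strand.

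Rab3b, Syt5, Syt1, Syt17 and Syt6 were higher in delta cells than in alpha cells and in beta cells, a pattern of 3.65% of all genes tested. Rab3b, a GTPase of the granule surface, lay at 131 to 231 FPKM (median 179) in the 6 delta samples, at 17.2, 19.1, 14.8, 13.5 and 25.8 in alpha cells and at 14.6, 67, 21.1 and 48.2 in beta cells. The delta samples stood apart from all others, and alpha and beta samples overlapped. The ratio of the means was 4.81 for delta over beta cells. On the log2 scale the difference was 3.27 ± 0.38 in delta against alpha cells (adjusted p = 3.3e-05) and 2.46 ± 0.41 in delta against beta cells (0.000715). Beta against alpha cells gave 0.82 (0.269), or 1.06 (0.0197) with size factors. Exons of Rab3b share 317 bases with 8030443G20Rik on the opposite strand.

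Syt5, a calcium-binding synaptotagmin, lay at 27.3 to 79.6 FPKM (median 38.3) in delta cells, at 13.8, 21.7, 9.99, 11.1 and 13.9 in alpha cells and at 2.94, 9.57, 3.16 and 6.23 in beta cells. The 3 groups did not overlap. The difference was 1.53 ± 0.36 in delta against alpha cells (adjusted p = 0.0135) and 2.83 ± 0.38 in delta against beta cells (0.000116). Beta against alpha cells gave -1.30 ± 0.40 with an adjusted p of 0.0585, which became 0.0176 without beta sample 2, 0.0435 with a pseudocount of 0.1, 0.0114 with size factors and 0.00931 after quantile normalisation.

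Syt1, the calcium sensor of fast synaptic release, lay at 1.49 to 15.4 FPKM (median 10.1) in delta cells, at 1.24, 0.467, 1.97, 0.725 and 1.85 in alpha cells and at 0.0858, 0.167, 0.0331 and 0.124 in beta cells. Delta sample 2 lay within the range of the alpha samples, and all delta samples lay above all beta samples. The difference was 1.99 ± 0.43 in delta against alpha cells (adjusted p = 0.0077) and 2.97 ± 0.46 in delta against beta cells (0.000379). Against alpha cells it was 0.75 within the higher and 2.59 within the lower ribosomal protein set, and against beta cells 1.62 and 3.62. The beta and alpha samples did not overlap, with a difference of -0.98 (adjusted p = 0.236) that passed the threshold with a pseudocount of 0.1 (0.0168) and when only these cell types were fitted (0.0489).

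Syt17 and Syt6 were low genes. Syt17, listed at 0 in all 4 beta samples, lay between 1.03 and 2.64 FPKM (median 2.08) in delta cells and at 0.861, 0, 0.686, 0.0478 and 0.708 in alpha cells. Every delta sample was above every alpha sample. The difference was 1.05 ± 0.26 in delta against alpha cells (adjusted p = 0.0174), which missed the threshold without alpha sample 2 (0.0534) or 4 (0.05, rounded) and after quantile normalisation (0.14), and 1.55 ± 0.27 against beta cells (0.00111). Syt6 lay between 0.633 and 2.21 FPKM (median 1.31) in delta cells, at 0 in 3 alpha samples with 0.0449 and 0.115 in the others, and at 0.0139, 0, 0.00796 and 0 in beta cells. Its delta samples were all above the other 9. The difference was 1.18 ± 0.25 in delta against alpha cells (adjusted p = 0.00581) and 1.21 ± 0.26 in delta against beta cells (0.005). Syt17 and Syt6 lay at levels like that of Sox9, which was also highest in delta cells. Exons of Syt6 share 505 bases with Atg4a-ps on the opposite strand.

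Sytl1, a Rab27 effector, Snap23, the widely expressed relative of Snap25, and Unc13d, a priming factor of granules that binds Rab27, each passed in 1 pairwise comparison. Sytl1 lay between 1.19 and 2.77 FPKM (median 1.99) in delta cells, at 0.722, 0.45, 0, 0.292 and 0.036 in alpha cells and at 0.944, 2.22, 0.623 and 0.292 in beta cells. Its delta and alpha samples did not overlap, with a difference of 1.21 ± 0.28 (adjusted p = 0.0124; 0.0528 after quantile normalisation), and without beta sample 2 the difference from beta cells passed as well (0.88, adjusted p = 0.0463; 0.177 with all samples). Snap23 lay at 15.6, 77.5, 17.5 and 89.3 FPKM in beta cells, at 21.3, 72.3, 29.5, 43.3 and 13.8 in alpha cells and between 4.90 and 15 (median 8.03) in delta cells. The delta samples lay below all beta samples by a narrow margin, with a difference of -2.01 ± 0.57 (adjusted p = 0.0252) that missed the threshold without beta sample 2 (0.0635), beta sample 4 (0.106) or delta sample 3 (0.057). Against alpha cells Snap23 gave -1.74 (adjusted p = 0.0652), which passed without alpha sample 5 (0.0359), with size factors (0.0119), after quantile normalisation (0.0114) and when only the 2 cell types were fitted (0.0313). Unc13d lay at 1.60, 2.09, 1.43 and 1.05 FPKM in beta cells, at 2.06, 3.62, 3.73, 3.13 and 7.24 in alpha cells and between 2.95 and 5.10 (median 3.70) in delta cells. Delta cells were apart from beta cells by 0.93 ± 0.29 (adjusted p = 0.038), which missed the threshold with size factors (0.141), after quantile normalisation (0.266), and without beta sample 1, 3 or 4 or any 1 delta sample (0.0515 to 0.12).

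**Figure D3:**
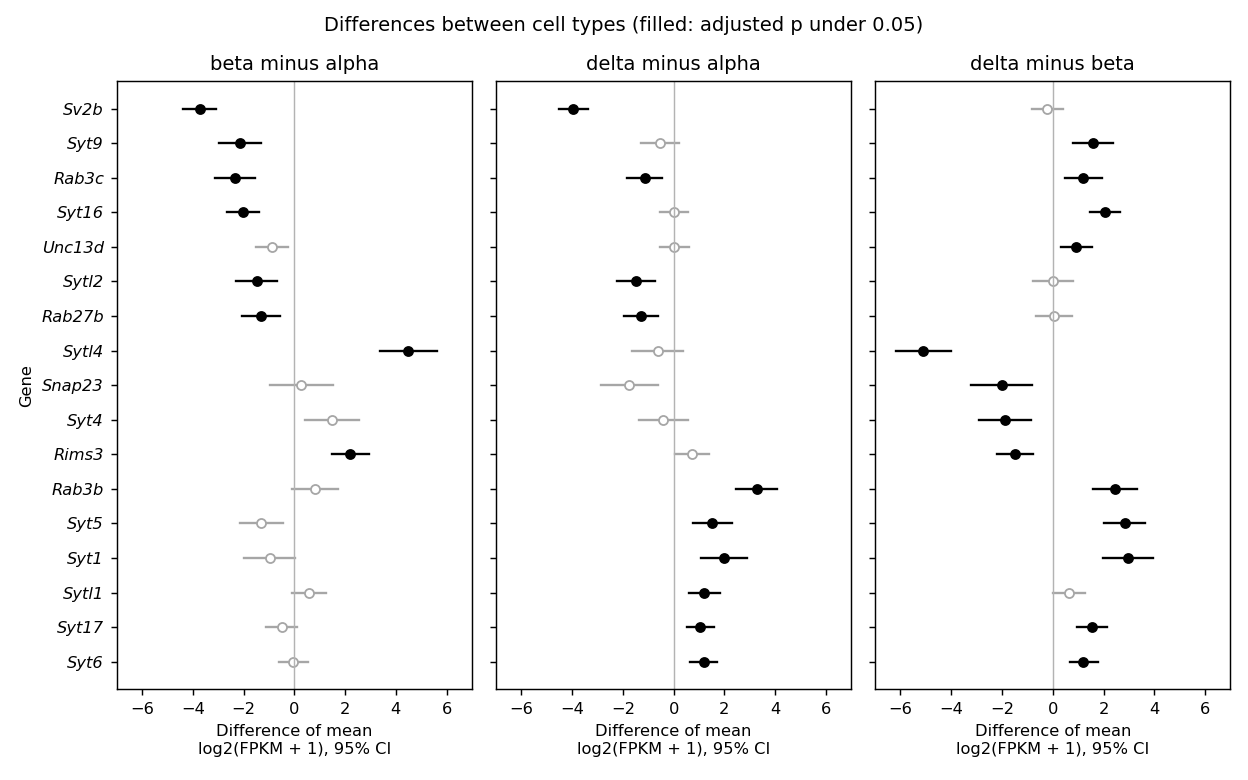
Differences of mean log2(FPKM + 1) with 95% confidence intervals for the 17 genes in the 3 comparisons, filled where the adjusted p was under 0.05 and open where it was not. The longest distances from 0 belong to Sytl4 (4.48 in beta against alpha and -5.10 in delta against beta cells) and Sv2b (-3.73 and -3.95).

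The 17 genes gave 31 pairwise differences, which were chosen for passing on the same 15 samples. With the set as a covariate all 31 passed the threshold. Among the 9 samples of the lower set 25 passed; the other 6 were both differences of Rab27b (adjusted p = 0.101 and 0.129) and those of Snap23 (0.0635), Syt4 (0.144) and Unc13d (0.0516) between delta and beta and of Syt17 (0.0638) between delta and alpha cells. Among the 6 samples of the higher set, with 1 beta sample, 9 passed. For Sytl4 the difference in beta against alpha cells was 5.57 in the higher and 4.20 in the lower set, for Rab3b in delta against alpha cells 3.52 and 3.09, and for Syt5 in delta against beta cells 2.30 and 2.96. For Rab3b in delta against beta cells it was 1.6 in the higher set and 2.46 with all samples.

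With all 15 samples no syntaxin (12 tested), syntaxin-binding protein (7), Vamp (5) or complexin (1) differed in limma's F-test or in a pairwise comparison, where 16.0% (F-test), 7.66%, 6.81% and 14.7% (beta against alpha, delta against alpha and delta against beta) of all genes did. At an unadjusted p under 0.05 in any of the 4 tests there were 5 of these 25 genes (Cplx2, Stx16, Stxbp5l, Vamp2 and Vamp8), and 40.8% of all genes. Under at least 1 alternative, where the share of all genes was not counted, 8 of the 25 passed a pairwise test. They were Cplx2, Stx5a, Vamp2 and Vamp8, described below, Stx16 (without beta sample 4, -2.28 in beta against alpha cells, adjusted p = 0.00338, and 1.82 in delta against beta cells, 0.00788, and after quantile normalisation in the former, 0.0405), Stxbp5l (delta against beta cells, 0.0112 without beta sample 2, 0.0412 within the lower ribosomal protein set and 0.045 after quantile normalisation), Stxbp6 (without beta sample 2, 1.77 in delta against beta cells, 0.0403, and within the lower ribosomal protein set against both other cell types, 0.0492 and 0.0294) and Vamp4 (delta against beta cells, -1.48, 0.0143 with size factors and 0.0306 after quantile normalisation). Snap25, the plasma membrane SNARE of regulated secretion, lay at 155 ± 41.2 FPKM in alpha (n = 5), 127 ± 73.6 in beta (n = 4) and 112 ± 23.4 in delta cells (n = 6). Its differences were -0.42 (95% CI -1.28 to 0.45) in beta and -0.45 (-1.23 to 0.33) in delta against alpha cells. Vamp2, the vesicle SNARE, lay at 60.4 ± 25.7, 56.0 ± 32.7 and 101 ± 17.5 FPKM, and delta against beta cells gave 0.99 (0.14 to 1.85, adjusted p = 0.115, or 0.0319 without beta sample 3). Stx1a, the neuronal syntaxin, was erratic, at 0.282, 15, 0.469, 0.122 and 5.36 FPKM in alpha and 4.60, 6.83, 0.143 and 0.144 in beta samples, against 1.59 to 3.96 in delta samples. The intervals of its differences, such as -1.70 to 1.52 in beta against alpha cells, leave changes of either direction possible. Rab3a, the main neuronal Rab3, lay at 14.6 ± 7.13, 15.4 ± 8.66 and 30.1 ± 7.02 FPKM, and delta against beta cells gave 1.05 (0.15 to 1.94, adjusted p = 0.112, or 0.0392 without beta sample 2).

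Rab27a, the main Rab27 of granules, lay at 31.4 ± 9.50, 37.1 ± 23.8 and 46.6 ± 7.32 FPKM in alpha, beta and delta cells. Rims2, an active zone scaffold that binds Rab3, lay at 13.9 ± 4.90, 14.6 ± 10.9 and 10.3 ± 3.53 FPKM. The intervals of beta against alpha cells were -0.82 to 0.95 for Rab27a and -1.22 to 0.83 for Rims2. Other genes differed between the ribosomal protein sets within a cell type. Syt7, a high-affinity calcium sensor, lay at 7.85, 7.96 and 3.23 FPKM in the alpha samples of the higher set and at 29.3 and 48.8 in the other 2. Unc13a, the Munc13-1 priming factor, lay at 2.65, 6.24 and 0.819 against 27.1 and 37.8, and Cplx2, the complexin of these cells, at 19.6, 12.5 and 8.58 against 46.6 and 67.9. For each of these 3 genes both alpha samples of the lower set exceeded all 3 of the higher set. In delta cells the means of the higher and lower sets were 5.32 and 29.2 FPKM for Syt7 and 26.6 and 74.6 for Cplx2, whereas for Unc13a they were 14.8 and 16.4. In beta cells the 1 sample of the higher set had the highest Cplx2 level, at 21.3 FPKM. Vamp8 went the other way and was higher in the higher set in every cell type, with means of 152 and 52.8 FPKM in alpha, 113 and 20.7 in beta and 130 and 44.6 in delta cells.

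Within the 9 samples of the lower set, Syt7 was lower in beta cells than in the alpha samples (-1.80, adjusted p = 0.0136) and higher in delta than in beta cells (1.42, 0.00862). Cplx2 likewise gave -1.60 (0.00992) and 1.99 (0.000969). These fits were made after seeing the data and rest on 2 alpha samples. Over all 15 samples neither gene passed, with -0.46 (adjusted p = 0.759) and 0.78 (0.513) for Syt7 and -0.31 (0.794) in beta against alpha cells for Cplx2. Within the higher set, with 1 beta sample, the signs turned for Syt7 (0.07 and -0.33) and for Cplx2 in beta against alpha cells (0.69). With all 15 samples Cplx2 gave 1.45 in delta against beta cells (adjusted p = 0.0886), and its 4 beta samples (15.2 to 21.3 FPKM) lay below all 6 delta samples (22.4 to 82.5, median 69.2). With the set as a covariate the adjusted p was 0.00822, and 0.0341 when only these cell types were fitted. Within the higher set the difference was 0.29. What separates the 2 sets of samples was not tested. Exons of Unc13a share 495 bases with Colgalt1 and those of Syt7 384 bases with Gm26859, both on the opposite strand.

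**Figure D4:**
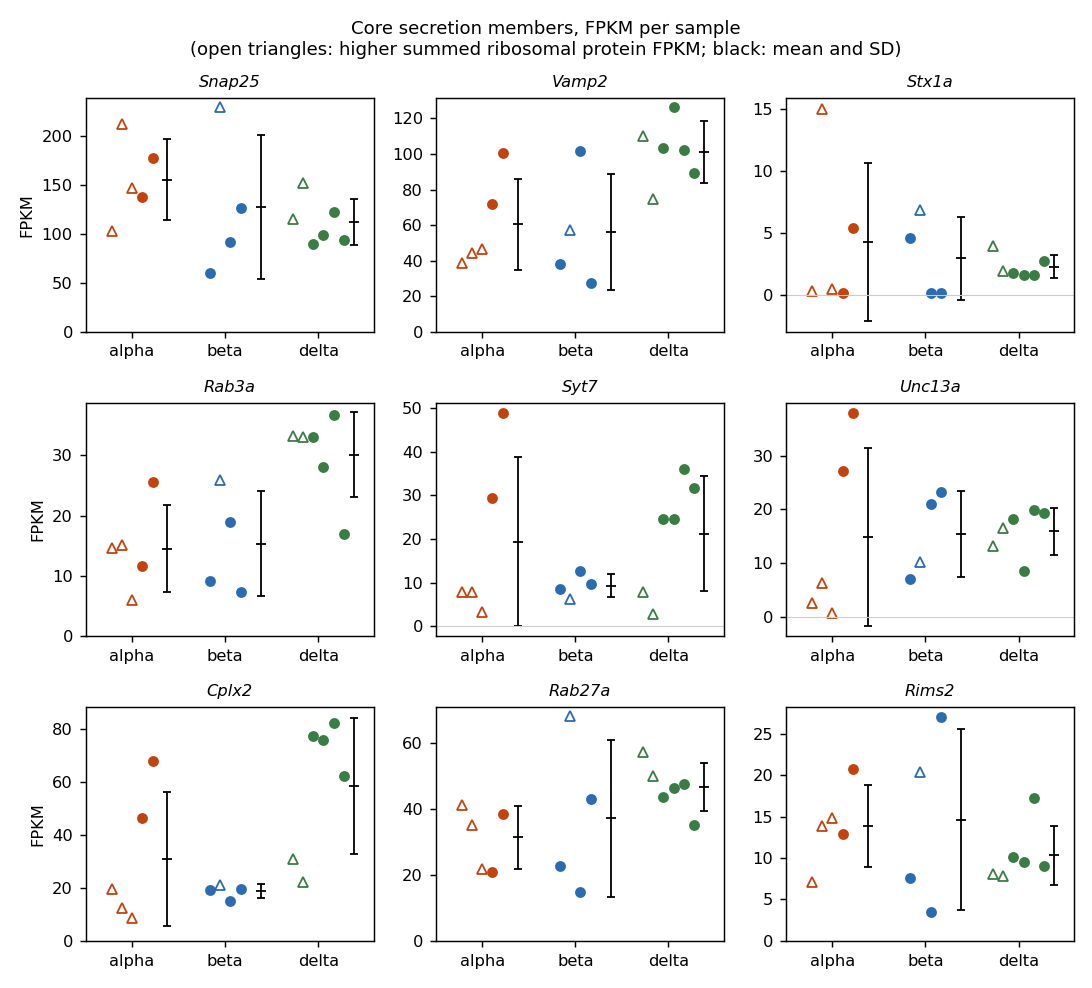
FPKM on linear axes in each of the 15 samples for 9 core secretion genes, with open triangles for the higher ribosomal protein set, filled circles for the other samples and a black bar for the mean and SD. The groups overlap for Snap25, Stx1a, Rab3a, Rab27a and Rims2, and the triangles lie low for Syt7, Unc13a and Cplx2 in alpha cells.

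Syt13, Stx5a, Snap25, Cplx2, Rab27a, Rab3b, Rims2 and Unc13a had the highest mean of their families in each of the 3 cell types. Within each ribosomal protein set this order held for Snap25, Cplx2, Rab27a, Rab3b, Rims2 and Unc13a. Syt13, a synaptotagmin that does not bind calcium, led the 17 synaptotagmins with 49.0 ± 14.3, 62.1 ± 12.6 and 59.2 ± 18.2 FPKM and made up 34.2 to 46.6%, 35.4 to 54.9% and 31.9 to 38% of their summed FPKM in the alpha, beta and delta samples. Within the higher set Syt5 led in delta cells (56.1 FPKM against 47.1) and Syt4 in the 1 beta sample (86.7 against 75.2). Stx5a, a Golgi syntaxin, led the syntaxins at 60.4 ± 17.4, 41.4 ± 34.3 and 35.1 ± 9.01 FPKM, with beta sample 2 at 92.8 and the other beta samples at 23.4 to 25. In delta cells Stx4a had the higher mean without delta sample 1 (33.6 against 31.8 FPKM) and within the lower set (34.3 against 30.1), and Stx8 within the higher set (53.9 against 45.1). Without beta sample 2 Stx5a passed the test, with less in beta than in alpha cells (-1.24, adjusted p = 0.0261, against -0.76 and 0.304 with it), as it did within the lower set (0.0179). Vamp8, a SNARE of endosomes and of several secretory cells, had the highest mean of the Vamp genes over all samples (78.4 FPKM, against 75.5 for Vamp2, an order that turned without alpha sample 1, 2 or 3, beta sample 2 or delta sample 2), at 113 ± 61.4, 43.8 ± 46.3 and 73.0 ± 44.8 FPKM, although Vamp4 had the higher mean in beta cells (76.6 FPKM, or 47 without beta sample 2) and Vamp2 in delta cells. Within the lower ribosomal protein set Vamp2 had the higher mean of the pair in alpha (86.1 FPKM), beta (55.7) and delta cells (105). Beta sample 2, the only beta sample of the higher set, held 113 FPKM of Vamp8 against 18.4 to 23.4 in the others, and without it the difference from alpha cells had an adjusted p of 0.0185 (0.129 with it, 0.0221 after quantile normalisation, 0.0398 with the set as a covariate and 0.0234 within the lower set). Delta against beta cells gave 0.97 for Vamp8 (0.308), and passed with the set as a covariate (0.82, 0.0411) and within the lower set (1.05, 0.0158). Stxbp2, or Munc18-2, had means of 22.4, 23.7 and 21.8 FPKM.

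The make-up of 4 families followed the differences above, and its shares are given as a description. Sv2b made up 69.2 ± 21.8% of the summed Sv2 FPKM in alpha cells, 2.89 ± 3.35% in beta and 1.58 ± 1.36% in delta cells, where Sv2a took nearly all of the rest. Sv2a itself lay at 10.1 ± 13.7, 20.8 ± 11.7 and 17.9 ± 12.1 FPKM, with alpha sample 5 at 34.3 and the other alpha samples at 0.27 to 6.71. In alpha sample 5 the share of Sv2b was 36.7% and that of Sv2a 62.1%. In the 2 alpha samples of the lower ribosomal protein set Sv2a had the higher mean (20.1 against 14.9 FPKM). Sytl4 made up 82.4 ± 3.85% of the Sytl genes in beta cells against 9.25 ± 11.6% and 4.62 ± 2.49% in alpha and delta cells, in which Sytl5 took 79.9 ± 9.28% and 73.7 ± 10.1%. Rab3b made up 41.9 ± 5.43% of the Rab3 genes in alpha, 59.6 ± 14.3% in beta and 78.5 ± 6.22% in delta cells, and the summed Rab3 FPKM was 44.1 ± 14.6, 60.2 ± 31.7 and 231 ± 40.9. Rims2 was the main Rims gene everywhere, at 98.1 ± 1.44%, 72.2 ± 13.0% and 85.8 ± 8.36%, and Rims3 took 27.7 ± 13.1% in beta cells. Cplx2 made up at least 99.3% of the complexin FPKM in every sample.

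**Figure D5:**
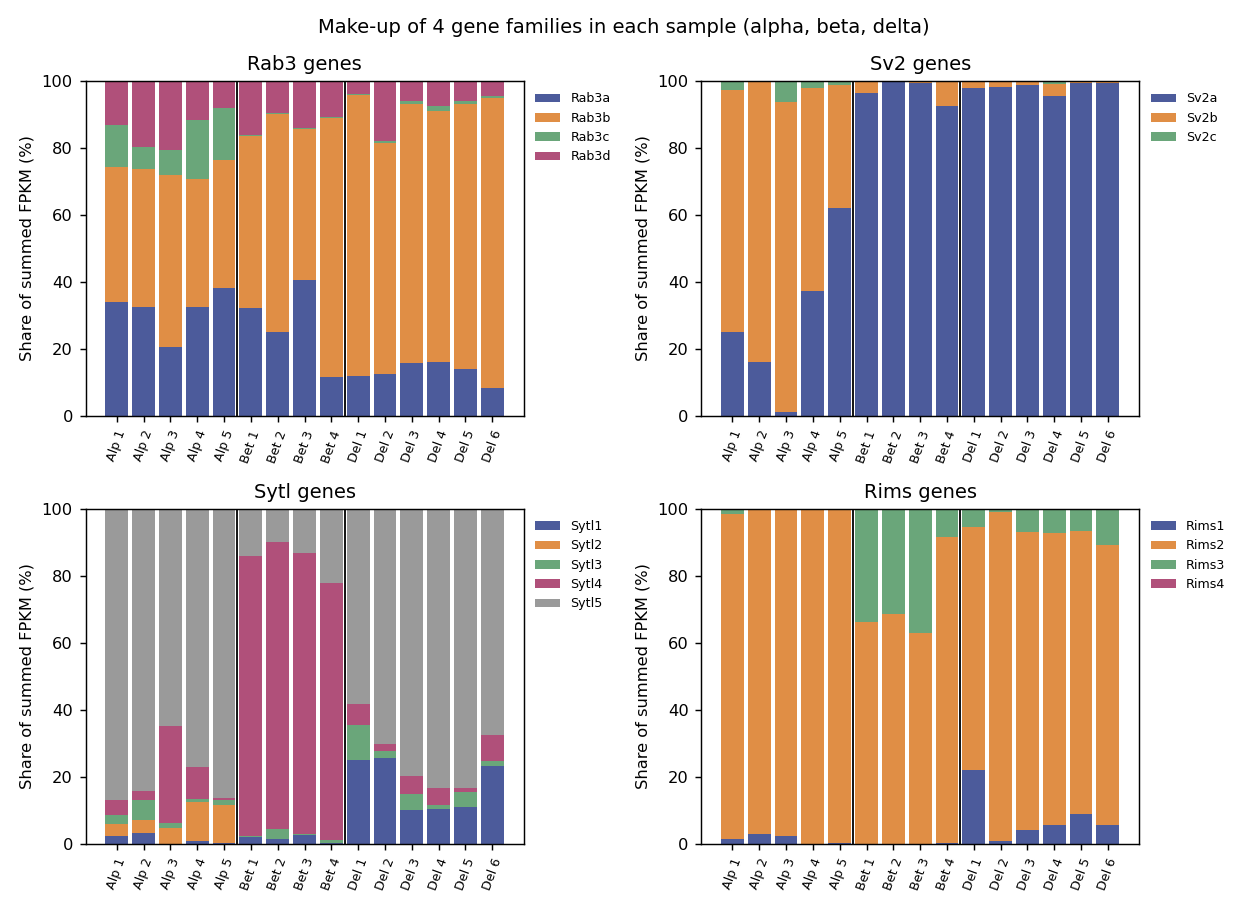
Stacked bars give the share of each member in the summed FPKM of its family, in percent, for each of the 15 samples, with black lines between alpha, beta and delta samples. Sv2b is prominent in the alpha samples, Sytl4 in the beta samples and Rab3b in the delta samples.

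The remaining 28 tested genes passed no test, and their means ran from 0.00573 FPKM (Rims1 in beta cells) to 76.6 FPKM (Vamp4 in beta cells). The 17 genes below the expression limit included Cplx1, Cplx3, Cplx4, Rims4, Stx11, Stx19, Stxbp3b, Sv2c, Syt10, Syt12, Syt15, Syt2, Syt8, Unc13c, Vamp5 and Vamp7, and none exceeded 1.49 FPKM in a sample. Of these, Cplx1, Cplx4, Syt8, Syt10 and Vamp7 were listed at 0 in all 15 samples. The identifier given for Vamp7 has no entry in GENCODE M21, and Stxbp3b is annotated there as a processed pseudogene, so reads of Stxbp3a could not be told from it with certainty.

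A list of 83 other genes that act with these families (Rab effectors, active zone proteins, priming factors, exocyst subunits and vesicle membrane proteins) was examined in the same fit, and 71 of them were tested. Of these, 15 differed across cell types, where 16.0% of all genes did. Beta and alpha cells differed in 6 (4 higher and 2 lower in beta cells; 7.66% of all genes differed), delta and alpha cells in 6 (5 higher and 1 lower in delta cells; 6.81%) and delta and beta cells in 14 (9 higher and 5 lower in delta cells; 14.7%). Cadps, which primes dense-core granules, was lower in delta cells (2.62 ± 0.952 FPKM) than in alpha cells (16.8 ± 4.40; -2.31, adjusted p = 0.000109) and beta cells (18.8 ± 7.69; -2.40, 0.000116). Pclo, the active zone scaffold piccolo, was higher in beta cells (21.7 ± 9.93 FPKM) than in alpha cells (1.53 ± 1.89; 3.35, 0.00183) and delta cells (3.41 ± 2.24; -2.48 in delta against beta cells, 0.00722). Delta cells exceeded both other cell types in Baiap3, a Munc13 relative (10.2 ± 2.42 FPKM; 1.53 against alpha, 0.0122, and 2.48 against beta cells, 0.000317), and in Ppfia2, an active zone liprin (4.73 ± 2.27 FPKM; 1.78, 0.00216, and 2.29, 0.000333). Within the lower ribosomal protein set the difference of Baiap3 from alpha cells was 1.0 (0.0644). Erc2, an active zone protein, exceeded its alpha cell level in delta cells (1.55, 0.00307) and in beta cells (1.14, 0.0448). The latter missed the threshold without alpha 1, 2, 3 or 4, beta 1 or 4 or delta 1, 3, 4, 5 or 6 (0.0562 to 0.157), with no filter (0.0638), with no variance trend (0.0501), when only these cell types were fitted (0.0856) and with the set as a covariate (0.0537). In beta against alpha cells Exph5, a Rab27 effector, was higher (2.11, 0.0417), and the exocyst subunit Exoc6 (-1.83, 0.025) and the SV2 relative Svop (-1.28, 0.0308) were lower. In delta against beta cells Svop (1.88, 0.000972) and Exoc6 (1.71, 0.017, or 0.0581 without beta sample 3) were higher. The differences of Exph5, Exoc6 and Svop between beta and alpha cells each missed the threshold when single samples were left out. For Exph5 these were alpha 1, 2 or 3, beta 1, 2 or 4 and delta 3, 4, 5 or 6 (adjusted p = 0.0515 to 0.144). For Exoc6 they were alpha 1 or 2 and beta 1 or 3 (0.0525 to 0.0674), and for Svop alpha 1, 2, 4 or 5 and beta 1 or 4 (0.0514 to 0.0971). When only these cell types were fitted the adjusted p was 0.143 for Exph5, 0.134 for Exoc6 and 0.0866 for Svop. Exph5 also missed the threshold with no filter (0.0782), with the set as a covariate (0.0505) and within the lower set (0.85, 0.436), and Exoc6 within the lower set (0.132). Svop missed it with the 5 FPKM filter (0.0581), with size factors (0.0635) and after quantile normalisation (0.0522). Within the lower set Erc2 missed it against alpha cells in delta (0.0837) and beta cells (0.229).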

How the data were processed

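Sorted alpha (n = 5), beta (n = 4) and delta cells (n = 6) were grouped by their labels. RNA was amplified (NuGEN) before library preparation. The authors aligned single reads to GRCm38 with TopHat (TopHat2 2.0.8 in the submitters' processing notes) and deposited gene-level FPKM made with Cufflinks 2.2.1. The annotation release and the use of strand are not given in the sources used here, so overlapping genes on opposite strands may share reads. The authors' edgeR comparison used read counts, which were not used here.

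Members were matched by symbol, and members and lists were chosen with earlier results of these data known. FPKM were tested as log2(FPKM + 1) with limma 3.58.1 (lmFit, eBayes with trend) in R 4.3.3, all 15 samples in 1 fit without covariates, over the 14405 genes with a mean above 1 FPKM in at least 1 cell type, with Benjamini-Hochberg adjustment and a threshold of 0.05 (two-sided). Differences on this scale understate changes of low genes. Named genes were all members that passed a test, 12 genes given as core or marker members, the most abundant member of each family, and the 4 listed partners with the largest differences in each comparison; some members are counted but not reported here by name. In simulated data for delta against alpha cells (14405 genes, 200 changed) 0.5% of changes of 1, 63.5% of 2 and 89.5% of 3 on the log2 scale were recovered. In the data 981 genes differed in this comparison. The adjustment was thus stricter in the simulation, and these shares may understate recovery in the data. A read step was counted as resolved when its score exceeded that of jittered copies by a factor of 2. The table gives no read totals, so no floor of detection is stated, and zeros are called listed at 0. Gene models are from GENCODE M21 and promoters from RefSeq (57 of 77 members matched). Alternatives were other pseudocounts (0.1), filters (none, 0.5 and 5 FPKM) and thresholds (0.01), size factors, quantile normalisation, fits of 2 cell types, a replicate block, the ribosomal protein set (limit 50000 summed FPKM) as a covariate, other variance models and leaving out each sample. Fits within each ribosomal protein set were added after seeing the data. Python 3.11.15 with numpy 2.4.6, pandas 2.3.3, SciPy 1.17.1 and matplotlib 3.10.9 was used.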

Additional observations from a re-analysis of the deposited data

Results flagged for a closer look

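In 11 of 96 groups of samples examined among the named exocytosis genes, 1 sample lay far from the others by Dixon's criterion. For independent, normally distributed values it would flag about 1 in 20 groups, or 4.8. It was applied to FPKM without logs, and the groups share the same 15 samples. The 11 groups were therefore not measured against chance. Beta sample 2 had the highest Stx5a (92.8 FPKM) and Vamp8 (113 FPKM) among beta samples, and beta sample 4 the highest Sv2b (1.22 FPKM) and Rab27b (0.284 FPKM). Alpha sample 5 stood high for Sv2a (34.3 FPKM) and Syt9 (11.3 FPKM), alpha sample 3 for Syt16 (7.05 FPKM), and alpha sample 4 stood low for Sv2b (9.52 FPKM). Among delta samples, delta 5 stood high for Rims2 (17.3 FPKM) and Sytl2 (0.0138 FPKM) and delta 6 low for Syt16 (2.2 FPKM).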

How the results depend on the processing

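Of the 31 pairwise differences that passed among the exocytosis genes, 0 reversed under any alternative, 8 passed under every alternative in which they were tested (Rab3b and Syt6 in delta against alpha, Syt6 and Sytl4 in delta against beta, and both differences of Sv2b and of Rims3 that passed), and 9 missed the threshold when 1 sample was left out. Of the 65 that did not pass, 36 changed sign and 17 passed under at least 1 alternative. Of the 15 that passed among the named partner genes, 0 reversed, 3 passed under every alternative and 5 missed the threshold when 1 sample was left out. The number of exocytosis genes that differed across cell types was 16, and 9 with a filter of 5 FPKM and 4 within the 6 samples of the higher ribosomal protein set. In beta against alpha cells it was 8, and 4, 3 and, within the 9 samples of the lower set, 13. In delta against alpha cells it was 10, and 4 with the 5 FPKM filter, 4 at a threshold of 0.01 and 3 within the higher set. In delta against beta cells it was 13, and 7 with the 5 FPKM filter and 4 within the higher set, where the lone beta sample is assumed to vary like the others. The filter tests fewer genes and the sets hold fewer samples. The share of all genes that passed was not counted under the alternatives. Leaving out 1 sample gave 14 to 21, 6 to 11, 8 to 10 and 10 to 17. With the replicate number as a block the counts were 16, 7, 8 and 11. Same-numbered samples of different cell types correlated at -0.152 to 0.281 (13 pairs, mean 0.076). Other-numbered ones gave -0.352 to 0.339 (61 pairs, mean -0.016). Both groups include delta cells of another mouse line, so pairing of alpha and beta samples was not tested. With the block Rab27b (adjusted p = 0.0649) and Sytl2 (0.0553) missed the threshold in beta against alpha cells. Rab27b (0.061), Rab3c (0.0566) and Syt17 (0.0628) missed it in delta against alpha cells. Rab3c (0.054), Syt4 (0.0718) and Unc13d (0.0949) missed it in delta against beta cells. Vamp8 passed in beta against alpha cells (0.0306). Where depth is unknown, values near 0 cannot be told from too few reads.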
